A study of Mus musculus with 8 samples.

Results

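The genes described here are 10 regulators of neuronal pre-mRNA splicing and mRNA fate: Ptbp1, Ptbp2, Rbfox1, Rbfox2, Rbfox3, Nova1, Nova2, Srrm4, Elavl3 and Elavl4. They are a named set, matched by symbol, and all 10 were found among the 23284 symbols of the count tables. All 10 also passed the filter on low counts, which left 14696 genes. Polyadenylated RNA was sequenced from dorsal cortex of C57BL/6 mouse embryos at E15.5, in 4 WT libraries (ErbB4+/+) and 4 libraries labelled ErbB4 KO (genotype ErbB4-/-), to ask which genes respond to loss of the neuregulin receptor ErbB4. ErbB4-/- embryos die of heart defects unless rescued. Per the paper, ErbB4 knockouts have therefore been studied in mice that express ErbB4 in heart muscle from the α-MHC promoter. It does not state this for the sequenced embryos in particular. WT and ErbB4-/- mice were bred as separate homozygous colonies, so colony and genotype cannot be told apart. Meninges and ganglionic eminences had been dissected away. The labels do not say that each library is a separate embryo, so the p-values measure only the spread between these libraries.

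Depth was 28205703 to 38346416 counted reads per WT library and 31574536 to 48871480 per ErbB4 KO library. Erbb4 itself was not lower in the libraries labelled ErbB4 KO (8.99, 19.9, 25.3 and 19.2 CPM (counts scaled to a common library total) in WT replicates 1 to 4 against 20.9, 24.6, 20.7 and 23.5). Its log2 fold change was 0.28 with a standard error (SE) of 0.23 (edgeR, adjusted p = 0.812). Neither the labels nor the paper describes the allele, and reads were not examined exon by exon. Why Erbb4 was not lower was not tested, so these counts do not check the genotype. Xist, the RNA of the inactive X chromosome, was at 977 to 1687 CPM in WT replicates 1, 2 and 3 and at 2.72 to 3.82 CPM in WT replicate 4 and every ErbB4 KO library, so 1 WT library is left for a comparison at low Xist. WT replicate 1 stood apart by transcript length. The Spearman correlation of each gene's deviation in that library with the length of its longest transcript was -0.579 over 14393 genes, against 0.0375 to 0.223 in the other libraries. This is a correlation across genes of one library, given without a test. Of the markers of other cells, those of red blood cells summed to 33.2 to 58.1 CPM in WT and 23.2 to 36.7 CPM in ErbB4 KO. In this list Hba-a1, Hba-a2 and Hbb-b2 were listed at 0, and as members of a family of near-identical globin genes their counts are uncertain. Microglial markers summed to 55.6 to 66.0 CPM and meningeal and vascular markers to 186 to 203 CPM over all libraries, against 11450 to 12340 CPM for neuronal markers.

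PTBP1 is a repressor of many neuronal exons that is high in progenitors, and its relative PTBP2 takes its place as neurons form. RBFOX proteins bind UGCAUG in introns and act by position: bound downstream they usually promote an exon, bound upstream they usually repress it. NOVA1 and NOVA2 bind clusters of YCAY in transcripts of synaptic and migration genes, SRRM4 promotes the very short neuronal exons called microexons, and ELAVL3 and ELAVL4 (HuC and HuD) stabilise AU-rich mRNAs and alter splicing in neurons. The counts analysed here sum a gene's reads over all of its exons. They measure how much mRNA of each regulator was present, and do not show which exons it or its targets used.

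The 10 genes lie on 10 different chromosomes and span 10.3 kb (Ptbp1) to 603 kb (Rbfox1, at chr16:6809315-7412572 on the plus strand of mm9). In 7 of them every exonic stretch of 50 bases, the read length, occurs once in the genome, and the share was 99.74% in Nova2, 99.49% in Elavl3 and 88.79% in Ptbp1. Nova2 shares exonic bases with Gm17370 and Srrm4 with 2410137F16Rik, each on the opposite strand. The libraries did not keep the strand, so reads there cannot be told apart.

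Levels were compared between genes as CPM per kilobase of the longest annotated transcript. Elavl3 was the most abundant of the 10, at 172.3 ± 7.55 CPM per kilobase in WT (SD, n = 4), above 98.6% of the 14393 genes with a length. Ptbp2 (131 ± 7.57) and Rbfox2 (122 ± 8.28) followed, and their values over the 8 libraries overlapped. Elavl4 came next at 70.1 ± 2.86 CPM per kilobase. Ptbp1 (44.4 ± 2.24) and Rbfox1 (39.2 ± 1.38) overlapped each other, as did Srrm4 (26.6 ± 2.93) and Nova2 (26.5 ± 1.72). The mean of Rbfox3 (33.0 ± 2.97) lay between these pairs, and its values over the 8 libraries overlapped those of Nova2. Nova1 was lowest at 11.4 ± 1.41 CPM per kilobase, still above 54.7% of the genes with a length. With the summed exons of all transcripts as the length, Rbfox3 stood at 17.9 CPM per kilobase, below Srrm4 and Nova2, and Rbfox1 (38.3) stood above Ptbp1 (29.7).

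**Figure D1:**
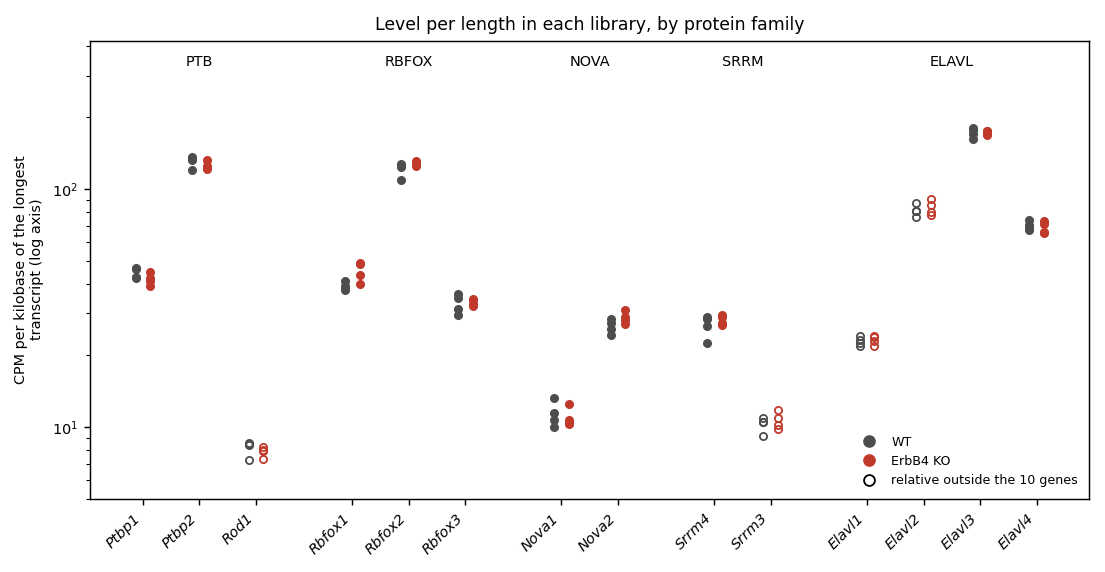
Level of each gene in each library as CPM per kilobase of its longest transcript, on a log axis, by protein family; grey points are WT, red points ErbB4 KO, and open points relatives outside the 10 genes. Elavl3, Ptbp2 and Rbfox2 sit highest and Nova1 lowest of the 10, and the grey and red points of each gene lie at similar heights.

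Within families the levels were spread widely. Rod1, the name these files use for Ptbp3, the PTB paralogue of blood cells, was at 8.17 ± 0.629 CPM per kilobase in WT, far below both Ptbp1 and Ptbp2. Among the ELAVL genes, Elavl1, the ubiquitous member HuR, was at 23.0 ± 0.956 and the neuronal Elavl2 at 81.4 ± 4.81 CPM per kilobase. Srrm3, the paralogue of Srrm4, was at 10.3 ± 0.726. Rest, the repressor of neuronal genes whose own transcript SRRM4 is known to splice, was at 2.31 ± 0.483.

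Between genotypes none of the 10 genes passed the test (0 of 10 at an adjusted p under 0.05 by edgeR's quasi-likelihood test, and 0 of 10 by DESeq2 and by limma-voom). Over all genes tested 4 of 14696 passed, or 0.0272%. At an unadjusted p under 0.05, 1 of the 10 was found by each of the 3 tools, Rbfox1, and the share over all genes was 5.53% by edgeR. For none of the 10 did the ErbB4 KO and WT values fail to overlap, against 3.34% of all genes tested. In log2 fold change 6 genes were above 0 and 4 below, with a median of 0.0136, where 49.2% of all genes were above 0 and their median was -0.00217. The 10 genes were measured more precisely than most, since the median SE of their log2 fold changes was 0.0607 against 0.0937 over all genes. Apart from Rbfox1, every 95% interval included 0, and these 9 intervals lay between changes of -15.8% and 19.6%. In bulk tissue, fewer cells of a type and less RNA per cell cannot be told apart.

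**Figure D2:**
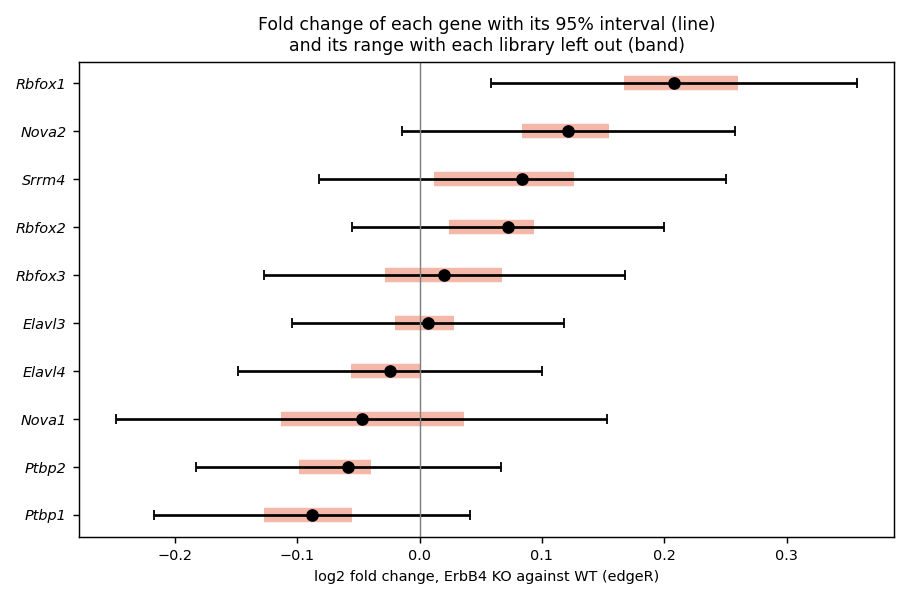
Log2 fold change of each of the 10 genes, ErbB4 KO against WT, with its 95% interval from edgeR as the line and, as the band, its range when each of the 8 libraries was left out in turn. Only the interval of Rbfox1, at 0.21, lies on one side of 0, and the bands of Elavl3, Elavl4, Nova1 and Rbfox3 cross 0.

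Ptbp1 and Ptbp2 are linked through short exons of equal length. PTBP1 is known to repress an exon of Ptbp2, which leaves a Ptbp2 mRNA that is degraded, and to repress the matching exon of its own mRNA. The exons lie at chr10:79324759-79324792 on the plus strand in Ptbp1 and at chr3:119427530-119427563 on the minus strand in Ptbp2 (mm9), and the closest match of that length in Rod1 lies at chr4:59498211-59498244 on the minus strand. They are shown because Ptbp2 output passes through this exon. Each has 34 bases, and capitals mark the 15 positions at which the 3 are not all alike:
Ptbp1 exon: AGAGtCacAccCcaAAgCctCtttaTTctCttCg
Ptbp2 exon: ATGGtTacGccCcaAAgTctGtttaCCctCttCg
Rod1 exon: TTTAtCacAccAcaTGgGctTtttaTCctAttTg
The Ptbp1 and Ptbp2 exons were identical at 26 of 34 positions (76.5%), and Rod1 matched Ptbp1 at 22 and Ptbp2 at 21. In the GENCODE annotation of mm9, 5 of 18 Ptbp1 transcripts hold the exon and 3 splice past it, whereas the single Ptbp2 transcript holds it.

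The 100 intronic bases before these exons differ in TCTT, a core of PTB binding sites, shown in capitals and searched on the transcribed strand only, with overlapping matches counted:
Ptbp1 upstream: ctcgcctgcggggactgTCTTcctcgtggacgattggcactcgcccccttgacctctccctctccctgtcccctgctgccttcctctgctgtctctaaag
Ptbp2 upstream: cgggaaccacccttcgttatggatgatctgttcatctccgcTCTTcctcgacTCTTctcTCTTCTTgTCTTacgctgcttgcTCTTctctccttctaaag
The Ptbp2 window held 6 copies and the Ptbp1 window 1. A single copy or more was found before 63.3% of 185475 internal exons, and 6 or more before 0.222%. The Ptbp1 and Ptbp2 exons were not left out of these counts. Pyrimidines made up 73.0% of the Ptbp2 window and 71.0% of the Ptbp1 window, against a median of 55% over all internal exons. These matches describe the sequence and do not show binding in this tissue.

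The level of Ptbp1 was 135, 135, 147 and 147 CPM in WT replicates 1 to 4 and 130.1, 123, 134 and 142 CPM in ErbB4 KO replicates 1 to 4. Its ErbB4 KO mean was 5.92% lower by the fit, with ErbB4 KO replicates 1, 2 and 3 below every WT library and replicate 4 among the WT values, so that the groups overlapped (log2 fold change -0.09, SE 0.06, adjusted p = 0.81). The value was -0.06 without ErbB4 KO replicate 2 and -0.15 with Xist level as a covariate. Reads of Ptbp1 need care, because 460 of its 4103 exonic stretches of 50 bases occur elsewhere in the genome, and 3 genes annotated on the opposite strand (E130317F20Rik, BC005764 and Gm17134) share exonic bases with it.

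Ptbp2 stood at 458, 456, 447 and 404 CPM in WT and at 409, 418, 448 and 422 CPM in ErbB4 KO. WT replicate 4 was the lowest of all 8 libraries, and the other WT libraries lay above every ErbB4 KO library but replicate 3. The log2 fold change was -0.06 (SE 0.06, adjusted p = 0.829). Without WT replicate 4 it was -0.10, and with Xist level as a covariate it was 0.07. The ratio of Ptbp2 to Ptbp1 within a library, a measure of the PTB switch that does not depend on library scaling, was 3.13-fold in WT and 3.20-fold in ErbB4 KO. On the log2 scale it was 1.65 ± 0.15 in WT and 1.68 ± 0.09 in ErbB4 KO (SD, n = 4), a difference of 0.03 (exact permutation test, two-sided, p = 0.8). Without WT replicate 4 that difference was -0.03. Rod1 was at 49.8, 58.8, 57.8 and 58.5 CPM in WT and 50.7, 55.3, 54.4 and 56.6 CPM in ErbB4 KO (log2 fold change -0.05, SE 0.07, adjusted p = 0.869).

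**Figure D3:**
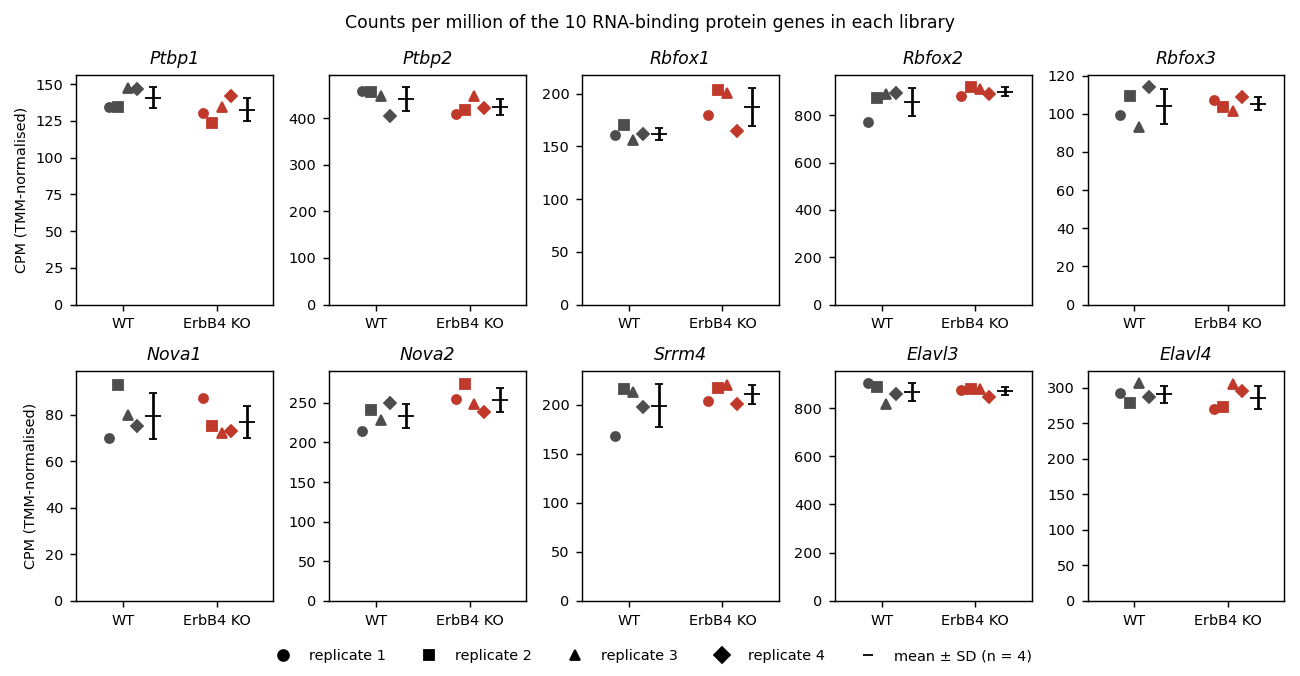
CPM of the 10 genes in each WT library (grey) and each ErbB4 KO library (red), from 0 upwards, with the symbol giving the replicate number and the black bar the mean ± SD of 4 libraries. In Rbfox1 the red points of replicates 1, 2 and 3 (180.1 to 203 CPM) lie above every grey point and that of replicate 4 (165 CPM) does not. In Ptbp1 the red points of replicates 1, 2 and 3 lie below every grey point and that of replicate 4 among them, and in the other genes the groups are intermixed.

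Rbfox1 showed the largest difference of the 10. It was at 161, 169.8, 156 and 161 CPM in WT and at 180.1, 203, 200.4 and 165 CPM in ErbB4 KO. ErbB4 KO replicates 1, 2 and 3 exceeded every WT library, and ErbB4 KO replicate 4 lay below WT replicate 2. By the fit Rbfox1 was higher in the libraries labelled ErbB4 KO (162 ± 5.71 CPM in WT against 187 ± 18.0 CPM, SD, n = 4; 95% interval of the change 4.15% to 28.1%, log2 fold change 0.21, SE 0.07, unadjusted p = 0.0106). It ranked only 164th by p among all genes, and its edgeR adjusted p was 0.81, so the difference did not pass the test. An exact permutation test of the 8 values gave p = 0.0571, where the smallest value that 4 against 4 allows is 0.0286.

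Leaving out ErbB4 KO replicate 4 raised the log2 fold change of Rbfox1 to 0.26 (adjusted p = 0.278), and leaving out ErbB4 KO replicate 2 lowered it to 0.17. Of the marker lists, the neuronal, progenitor and red blood cell sums are set beside these values. Neuronal markers summed to 11987, 12307 and 12342 CPM in ErbB4 KO replicates 1, 2 and 3, above the WT range of 11450 to 11700 CPM, and to 11577 CPM in replicate 4, within it. Progenitor markers summed to 2816, 2786 and 2870 CPM in ErbB4 KO replicates 1, 2 and 3 and to 3187 CPM in replicate 4, against 2833 to 3460 CPM in WT. Red blood cell genes summed to 23.2, 26.0 and 24.9 CPM in ErbB4 KO replicates 1, 2 and 3, below the WT range of 33.2 to 58.1 CPM. In replicate 4 they summed to 36.7 CPM, within that range. Not every list singled out replicate 4: glial markers summed to 116, 118, 94.3 and 92.0 CPM in ErbB4 KO replicates 1 to 4, and interneuron and ganglionic eminence markers to 899.9, 810.3, 678 and 772 CPM. The part of these marker levels in the Rbfox1 difference was not tested. The fold change of Rbfox1 was 0.22 with Xist level as a covariate (unadjusted p = 0.0959) and 0.17 with the trend on transcript length removed.

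Rbfox2, the broadly expressed member, was at 770.0, 872, 889 and 894 CPM in WT and at 881, 919, 911 and 890.3 CPM in ErbB4 KO. WT replicate 1 was low and the other 7 libraries lay close together. The log2 fold change of 0.07 (SE 0.06, adjusted p = 0.812) became 0.02 without WT replicate 1. Rbfox3, which encodes the NeuN antigen of mature neurons, was at 99.1, 109, 93.3 and 114 CPM in WT and 107, 104, 102 and 109 CPM in ErbB4 KO, with every ErbB4 KO value inside the WT range (log2 fold change 0.02, SE 0.07, adjusted p = 0.955). The log2 ratio of Rbfox1 to Rbfox2 was -2.40 ± 0.11 in WT and -2.27 ± 0.12 in ErbB4 KO (exact permutation p = 0.143). That of Rbfox3 to Rbfox2 was -3.04 ± 0.14 and -3.10 ± 0.07 (p = 0.6 by the same exact test). Their difference of -0.05 became -0.12 without WT replicate 3, the lowest WT library in this ratio (exact permutation p = 0.0857). The groups overlapped in both ratios.

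Copies of the RBFOX motif flank the same exon in Rbfox1 and Rbfox2. RBFOX proteins are known to repress a 93-base exon of their own RNA-binding domain in Rbfox1 and Rbfox2. In mm9 it lies at chr16:7292278-7292370 on the plus strand in Rbfox1 and at chr15:76936007-76936099 and chr11:118364156-118364248, both on the minus strand, in Rbfox2 and Rbfox3. Capitals mark the 26 positions at which the 3 exons are not all alike:
Rbfox1 exon: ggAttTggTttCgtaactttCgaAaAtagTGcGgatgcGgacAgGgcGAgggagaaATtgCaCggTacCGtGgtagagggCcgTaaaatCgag
Rbfox2 exon: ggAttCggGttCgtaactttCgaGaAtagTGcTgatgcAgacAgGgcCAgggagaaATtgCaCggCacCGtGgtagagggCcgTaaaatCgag
Rbfox3 exon: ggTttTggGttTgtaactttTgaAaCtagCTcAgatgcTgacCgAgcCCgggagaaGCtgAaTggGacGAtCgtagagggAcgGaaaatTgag
Rbfox1 and Rbfox2 were identical at 86 of 93 positions (92.5%), and Rbfox3 matched each of them at 69 (74.2%). The exon is held by 6 of 7 annotated transcripts of Rbfox1, 6 of 8 of Rbfox2 and 7 of 11 of Rbfox3.

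The last 100 intronic bases before the exon, with TGCATG (the RBFOX motif UGCAUG as DNA) in capitals, read:
Rbfox1 upstream: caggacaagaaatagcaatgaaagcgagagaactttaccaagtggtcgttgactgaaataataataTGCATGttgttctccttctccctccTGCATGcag
Rbfox2 upstream: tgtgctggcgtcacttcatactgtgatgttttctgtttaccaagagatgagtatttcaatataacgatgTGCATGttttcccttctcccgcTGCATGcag
Rbfox3 upstream: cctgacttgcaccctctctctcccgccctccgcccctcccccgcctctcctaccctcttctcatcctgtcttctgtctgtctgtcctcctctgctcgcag
The windows of Rbfox1 and Rbfox2 each held 2 copies, and in both the second copy ended 3 bases before the exon. The 100 bases after the exon of these 2 genes held 1 more copy, which began at the second intronic base. TGCATG was searched on the transcribed strand only, with overlapping matches counted. At least 1 copy was found in 3.21% of upstream and 4.05% of downstream windows of 185475 internal exons. At least 2 were found upstream in 0.109%, and at least 2 upstream with at least 1 downstream in 10 exons (0.00539%). The Rbfox1 and Rbfox2 exons were not left out of these counts, and exons with different boundaries were counted separately. No copy was found in either window of Rbfox3, which says only that these letters are not there. Its shorter core GCATG, which every TGCATG contains, was found once in the downstream window of Rbfox3, as in 10.6% of downstream windows, and not in its upstream window.

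Nova2 was at 215, 241, 228 and 249 CPM in WT and at 255, 273, 248 and 238 CPM in ErbB4 KO. The highest values were in ErbB4 KO replicates 1 and 2, and the other ErbB4 KO libraries lay among the WT libraries. The log2 fold change was 0.12 (SE 0.06, unadjusted p = 0.0757, adjusted p = 0.81), with a 95% interval from -1.02% to 19.6%. It was 0.02 both with Xist level as a covariate and with the length trend removed. Nova1 was at 69.98, 92.9, 79.9 and 75.0 CPM in WT and 87.0, 75.2, 72.1 and 73.0 CPM in ErbB4 KO, with the widest relative spread of the 10 in WT (coefficient of variation 12.4%). The fit gave a log2 fold change of -0.05 for Nova1 (SE 0.09, adjusted p = 0.913). The log2 ratio of Nova2 to Nova1 was 1.56 ± 0.15 in WT and 1.73 ± 0.13 in ErbB4 KO (exact permutation p = 0.171). The difference of 0.17 was 0.10 without WT replicate 2, and 0.22 without either ErbB4 KO replicate 1 or WT replicate 4 (exact permutation p = 0.0857 in each case).

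Srrm4, which encodes the microexon regulator also called nSR100, was at 168, 216, 213 and 198 CPM in WT. In ErbB4 KO it was at 204, 217, 220.0 and 201 CPM. WT replicate 1 was the lowest library by a wide margin, and without it the log2 fold change fell from 0.08 (SE 0.08, adjusted p = 0.827) to 0.01. Rest was at 11.2, 16.7, 18.6 and 18.1 CPM in WT and 14.4, 15.9, 17.5 and 17.2 CPM in ErbB4 KO, also lowest in WT replicate 1. Its log2 fold change was close to 0 (0.0037, SE 0.14, adjusted p = 0.997). The log2 ratio of Srrm4 to Rest was 3.64 ± 0.20 in WT and 3.70 ± 0.12 in ErbB4 KO (exact permutation p = 0.657). That difference of 0.058 was 0.146 without WT replicate 1 and -0.0055 without WT replicate 4. Srrm3 was at 36.2 to 42.7 CPM in WT and 38.5 to 46.5 CPM in ErbB4 KO (log2 fold change 0.06, SE 0.08, adjusted p = 0.87).

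Elavl3 was at 903, 887, 817 and 857 CPM in WT and at 874, 880.4, 879.7 and 847 CPM in ErbB4 KO. All ErbB4 KO values lay inside the WT range, and the log2 fold change of 0.0069 (SE 0.05, adjusted p = 0.982) was the most precise of the 10, with a 95% interval from -6.99% to 8.54%. Elavl4 was at 293, 278, 306 and 287 CPM in WT and 271, 273, 305 and 296 CPM in ErbB4 KO (log2 fold change -0.02, SE 0.06, adjusted p = 0.93). Replicate 3 was the highest library in both genotypes. The log2 ratio of Elavl4 to Elavl3 was -1.57 ± 0.11 in WT and -1.61 ± 0.10 in ErbB4 KO (exact permutation p = 0.6). None of the 6 within-library ratios reached an unadjusted exact p under 0.05. Elavl2 (log2 fold change 0.04, SE 0.06, adjusted p = 0.903) and Elavl1 (0.02, SE 0.05, adjusted p = 0.945) also did not pass the test.

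The deviations of the 10 genes in each library were set beside transcript length. Their Spearman correlation over the 10 genes was -0.673 in WT replicate 1, 0.552 in ErbB4 KO replicate 2 and between -0.309 and 0.309 in the other libraries, given as a description. The 4 genes with the longest transcripts, Nova1 (7000 nt), Rbfox2 (7031 nt), Srrm4 (7476 nt) and Nova2 (8816 nt), each had their lowest value of the 8 libraries in WT replicate 1. There their log2 CPM was 0.15 to 0.28 below the gene's mean. The other 6 genes have longest transcripts of 3150 to 5027 nt, and in WT replicate 1 their deviations ran from -0.11 (Rbfox1) to 0.09 (Ptbp2). Without this library the log2 fold change moved from 0.08 to 0.01 for Srrm4, from -0.05 to -0.10 for Nova1, from 0.07 to 0.02 for Rbfox2 and from 0.12 to 0.08 for Nova2.

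**Figure D4:**
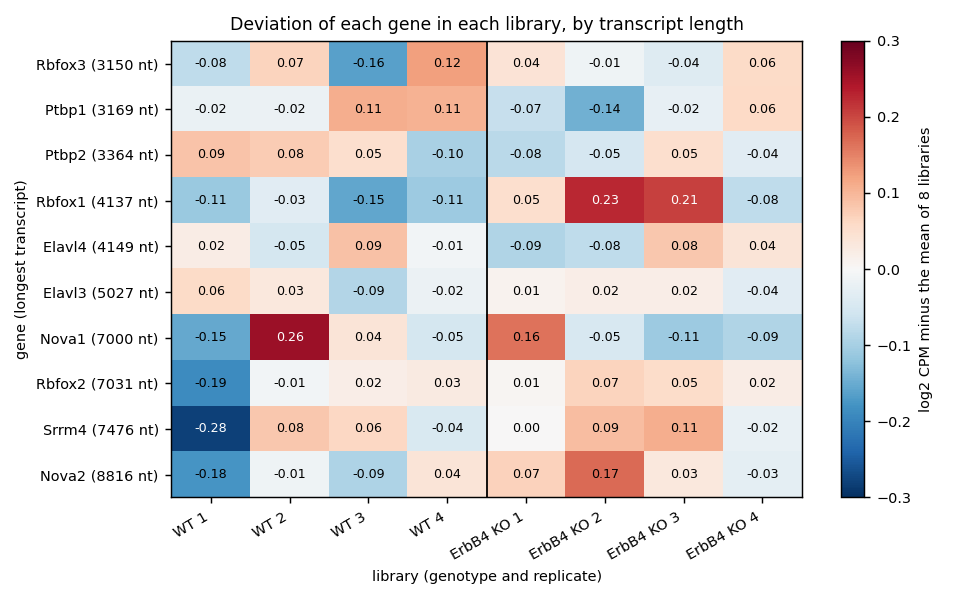
Deviation of log2 CPM from the gene's mean over the 8 libraries for each of the 10 genes, in rows ordered by the length of the longest transcript and columns by library; red is above and blue below the mean. The 4 bottom rows (7000 to 8816 nt) are blue in WT replicate 1, and Rbfox1 is red in ErbB4 KO replicates 2 and 3.

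The wider network was read from lists of genes. Among 30 other neural RNA-binding genes 0 passed by edgeR, DESeq2 or limma-voom, and 2 had an unadjusted p under 0.05 by each of the 3, near the share of 5.53% over all genes by edgeR. Their median log2 fold change was -0.0178, with 12 above 0. These 2 were Pcbp3 and Igf2bp2. Pcbp3, a poly(C)-binding protein gene, was at 41.7, 41.1, 36.8 and 37.5 CPM in WT and 35.04, 32.8, 34.2 and 34.6 CPM in ErbB4 KO, and was the only one of the 30 whose groups did not overlap, where 3.34% of all genes did not (log2 fold change -0.20, SE 0.07, edgeR adjusted p = 0.81). Igf2bp2, an mRNA-binding protein gene of cortical progenitors, was at 98.3, 77.2, 91.5 and 93.6 CPM in WT and 74.2, 73.2, 73.1 and 91.6 CPM in ErbB4 KO, where replicate 4 again lay with WT (log2 fold change -0.21, SE 0.09, edgeR adjusted p = 0.81).

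General splicing factors lay mostly below 0. Of 22 heterogeneous nuclear ribonucleoprotein (hnRNP) genes 18 had a log2 fold change below 0, with a median of -0.0793, and of 20 SR protein and SR kinase genes 18 did, with a median of -0.0868, where 50.8% of all genes were below 0. None of these 42 genes passed by any of the 3 tools, and at an unadjusted p under 0.05 there was 1 hnRNP gene and no SR gene by each tool, against 5.53% of all genes by edgeR. The hnRNP gene was Hnrnpm, at 547, 448, 491 and 453 CPM in WT and 416, 397, 427 and 465.8 CPM in ErbB4 KO (log2 fold change -0.18, SE 0.07, edgeR adjusted p = 0.81). WT replicate 1 was its highest library, and the same held for Hnrnpl (397 CPM, against 331 to 345 CPM in the other WT libraries), Srsf2 (444 against 357 to 384 CPM) and Srsf4 (194 against 168 to 173 CPM). Their log2 fold changes were -0.12, -0.16 and -0.12. Without WT replicate 1 the hnRNP median was -0.0252 and the SR median -0.061. With Xist level as a covariate they were -0.0172 and -0.0396. Progenitor markers lay on the same side, with 14 of 15 below 0 and a median of -0.156, and none of them passed the test by any of the 3 tools (5 at an unadjusted p under 0.05 by each, where the share over all genes was 5.53% by edgeR). Their part in the lower hnRNP and SR medians was not tested.

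Of 15 genes known as RNA targets of the 10 proteins, 12 had a log2 fold change above 0, with a median of 0.0781. It was 0.0198 with the length trend removed and 0.034 without WT replicate 1. Over all genes 49.2% were above 0. None of the 15 passed, and 3 had an unadjusted p under 0.05, by each of the 3 tools, where the share over all genes was 5.53% by edgeR. Dab1, the reelin adaptor whose splicing NOVA2 controls, was at 257, 289, 266 and 268 CPM in WT and 289.8, 321, 336 and 286 CPM in ErbB4 KO. As in Rbfox1, ErbB4 KO replicates 1, 2 and 3 exceeded every WT library and replicate 4 did not (log2 fold change 0.19, SE 0.07, edgeR adjusted p = 0.81). Neuronal markers had 11 of 15 genes above 0 and a median of 0.0478, and glial markers 7 of 8 with a median of 0.345. None of either list was called by any of the 3 tools, and 2 of the neuronal and 4 of the glial genes had an unadjusted p under 0.05, against 5.53% of all genes. The groups did not overlap in 2 of the 8 glial genes, against 3.34% of all genes. Interneuron and ganglionic eminence markers (5 of 12 above 0, median -0.0174), meningeal and vascular markers (8 of 12, 0.0385) and microglial markers (6 of 9, 0.0224) had medians within 0.05 of 0, and of 5 red blood cell genes tested 2 were above 0 (median -0.146). None of these was called by any of the 3 tools, and by edgeR 1, 0, 0 and 2 had an unadjusted p under 0.05.

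**Figure D5:**
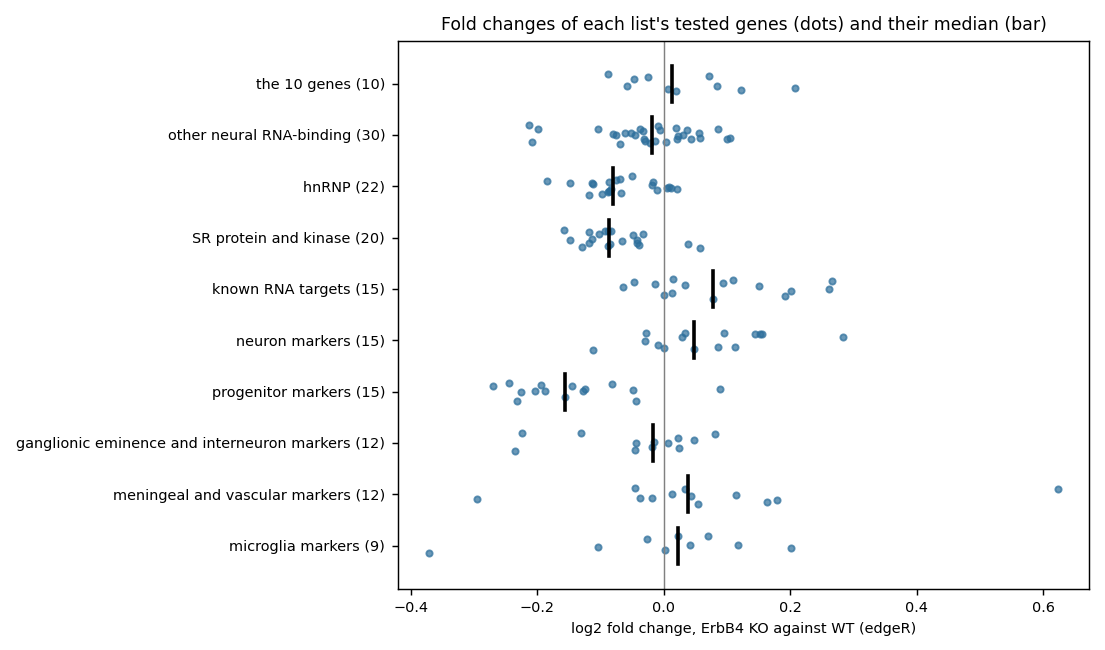
Log2 fold change, ErbB4 KO against WT, of every tested gene of each list shown (dots, spread vertically for visibility). The bar is the list's median, and the number of genes is in brackets. The glial (median 0.345) and red blood cell (median -0.146) lists are not shown. The 10 genes centre on 0, the hnRNP and SR lists lie mostly left of 0 with medians of -0.0793 and -0.0868, and no gene shown passed the test.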

How the data were processed

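Polyadenylated RNA of cortex had been sequenced in 4 WT and 4 ErbB4 KO libraries, as single 50-base reads without strand. Per the labels and the study's methods, the authors used HISAT for alignment (build mm9) and HTSeq for gene counts. Versions, gene annotation and counting mode are not given in the sources used here. The deposited values are raw counts per gene symbol in 1 table per library, and these were the only values used. A further deposited table holds the authors' own DESeq2 comparison (means, fold changes and p-values) and was not used here.

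Counts were analysed in R 4.3.3 with edgeR 4.0.16. Genes passed filterByExpr (minimum count 10, minimum total 15), libraries were scaled by TMM, and a quasi-likelihood test of ErbB4 KO against WT was fitted on all 14696 genes with Benjamini-Hochberg adjustment and a threshold of 0.05. CPM use TMM-scaled library sizes. Log2 ratios of 2 genes within a library were compared by exact two-sided permutation over all 70 assignments. The 6 ratio p-values are given unadjusted. The smallest possible p is 0.0286. The scripts were tested on simulated data.

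The members and gene lists were chosen with earlier results of these data known. Named genes were the 10 members, Ptbp3, Elavl1, Elavl2, Srrm3, Rest and Erbb4, for each list of RNA-binding genes and targets the 2 genes with the smallest p and any called, and marker genes at 0. One gene named by this rule is not reported here. Alternatives were RLE and upper-quartile scaling, no filter or a mean of at least 50 counts, DESeq2 1.42.0, limma-voom (limma 3.58.1), a replicate block, Xist as a covariate, removal of the length trend, a threshold of 0.1 and leaving out each library. Gene positions, exons and lengths came from GENCODE vM1 on NCBIM37 (mm9), which matched 21897 of 23284 symbols. Exon sequences were read from that genome.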

Additional observations from a re-analysis of the deposited data

Results flagged for a closer look

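Of 60 values examined (30 genes and ratios named in the report, in each genotype), 3 had 1 library far from the other 3 of its group. Chance flags about 1 in 20 such groups. Rod1 was at 49.76 CPM in WT replicate 1, against 57.79 to 58.81 CPM in the other WT libraries. The log2 ratio of Rbfox3 to Rbfox2 was -3.252 in WT replicate 3, against -2.996 to -2.958 in the others. Igf2bp2 was at 91.61 CPM in ErbB4 KO replicate 4, against 73.12 to 74.18 CPM in the other ErbB4 KO libraries.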

How the results depend on the processing

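The number of the 10 genes called was 0 under every alternative run. The count over all genes was 4 in the fit reported, 24 by DESeq2, 1 with RLE scaling, 1 with upper-quartile scaling, 1 with Xist level as a covariate and 2 with the length trend removed. With single libraries left out it ran from 1 to 13, the highest without WT replicate 4. The labels do not say whether replicate numbers pair the samples, and pairing was not tested. The correlations of same-numbered WT and ErbB4 KO libraries were 0.204, 0.255, 0.0797 and 0.0218. Of the WT libraries, 2 of 4 correlated best with their own number. With the replicate block 1 gene was called in all and 0 of the 10.

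Among the 10 genes and 6 ratios, signs changed in the following cases. With the length trend removed the log2 fold change was -0.0498 for Elavl3 and -0.00528 for Rbfox2, and the Rbfox3 to Rbfox2 ratio difference was 0.0142. With Xist level as a covariate it was 0.0362 for Nova1, 0.0701 for Ptbp2 and -0.111 for Rbfox3. The cause was not tested. With each library left out in turn the log2 fold change ran from -0.0202 to 0.0278 for Elavl3, -0.0561 to 0.00141 for Elavl4, -0.113 to 0.0362 for Nova1 and -0.0283 to 0.0672 for Rbfox3. The ratio differences ran from -0.0665 to 0.0197 for Elavl4 to Elavl3, -0.0314 to 0.071 for Ptbp2 to Ptbp1 and -0.00552 to 0.146 for Srrm4 to Rest. Of the list medians, that of the 10 genes ran from -0.0275 to 0.0409 over all alternatives, interneuron and ganglionic eminence markers from -0.0852 to 0.216, meningeal and vascular markers from -0.0108 to 0.101, microglial markers from -0.0536 to 0.112 and red blood cell genes from -0.68 to 0.158, and the other lists kept their sign. With Xist level as a covariate the hnRNP median was -0.0172 and the SR median -0.0396. Rbfox1 stayed between 0.167 and 0.26 under every alternative, with adjusted p from 0.278 to 1.

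With 4 libraries a group, the 95% intervals given show which sizes of change these data leave possible. Colony and genotype cannot be told apart. Xist level and genotype overlap in WT replicate 4 alone, since 3 of 4 WT libraries and no ErbB4 KO library had high Xist.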
